A study of Mus musculus with 10 samples.

Results

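After 1 week without estrogen, human breast cancer cells in axillary lymph nodes were compared with the same kind of cells in the primary mammary gland tumors. The comparison used the 3 arrays labelled as lymph node metastases after withdrawal (mice 9, 10 and 19) and the 2 labelled as primary tumors after withdrawal (mice 10 and 19), 5 of the 10 arrays of the series. Mice 10 and 19 gave both sites, so the difference could also be taken within each of these animals. The other 5 arrays were lymph node metastases of mice 6, 11 and 14 and primary tumors of mice 11 and 14, all of which kept their estrogen. They entered the fit to help estimate the spread between arrays and gave a separate site comparison.

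All hosts were female nu/nu mice, a hairless strain without a working thymus, 20 weeks old. Each had received an estrogen pellet, and in the withdrawn animals it had been taken out for the last 1 week, so the withdrawn cells had first grown with estrogen. The labels describe the material as human breast cancer cells grown in mouse without naming the line, and the series title calls the model estrogen receptor positive. Cells were cut from frozen sections by laser capture, and PCR was used to amplify their RNA ahead of labelling. Each value is a log2 signal of 1 probe set on 1 array with human probes, so mouse RNA could be read only by cross-hybridization. No label states that arrays of a group came from different tumor implants or cell batches. The p-values measure the spread between arrays, with 1 array per mouse and site, so mouse, capture, amplification and hybridization cannot be told apart in it. With captured tissue, fewer cells of a type and less RNA per cell cannot be told apart either.

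Breast cancers that carry the estrogen receptor use the hormone as a growth signal, and removing it slows the expression of its target genes. The axillary lymph nodes drain the mammary gland and are the usual first site of spread. Cells that arrive there meet a tissue of lymphocytes, dendritic cells and specialised stroma in place of fat and mammary connective tissue.

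Luminal epithelial genes had high values at both sites. The mean level of the 23 measured was 8.73 to 9.04 in lymph nodes against 8.42 and 8.65 in primary tumors. KRT18, a luminal keratin, had 13.31, 13.46 and 13.38 in the lymph nodes of mice 9, 10 and 19 and 13.45 and 12.45 in the primary tumors of mice 10 and 19. ESR1, the estrogen receptor gene, had 11.87, 11.02 and 11.52 against 11.28 and 12.65, and in this order of arrays all values below are given. The primary tumor of mouse 19 held the highest ESR1 value and the lowest KRT18 value. PGR, the progesterone receptor gene and a classic estrogen target, lay between 2.10 and 2.29 on the 5 arrays, below the median of each array (2.70 to 2.79). Its mean did not reach the filter on low values, so it was not tested.

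The 5 arrays shared a like range of values, with 99th percentiles of 11.50 to 11.67, but differed in control signals. The mean of the 18 hybridization control probe sets was 12.31 to 12.47 on both primary tumors and the lymph node of mouse 19, and 9.47 and 10.13 on the lymph nodes of mice 9 and 10. The GAPDH 3′ minus 5′ probe set difference, which grows as RNA is degraded or shortened, was 3.84 to 4.39 in lymph nodes against 4.62 and 5.87 in primary tumors. Each of these differences had an exact two-sided permutation p of 0.2, the smallest that 3 against 2 arrays allow, and an adjusted p of 0.6 over 6 array measures. The lymph nodes of mice 9 and 10 were the closest pair, with a mean absolute difference of 0.295 over the genes tested. Lymph node and primary tumor of the same mouse differed by 0.531 in mouse 10 and 0.625 in mouse 19, and the primary tumors differed from each other by 0.486. Mouse 19's lymph node stood 0.615 and 0.511 from the other lymph nodes, so it was as far from its own group as arrays of different sites were from each other.

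Of 19556 genes measured, 17170 passed the filter and were tested. With limma and Benjamini-Hochberg adjustment over all of them, 0 genes differed between the sites at an adjusted p below 0.05 (0% called), and the smallest adjusted p was 0.0643. At an unadjusted p below 0.05 there were 1379 genes higher (8.03%) and 344 lower (2%) in lymph nodes. The higher share depended on the scale: after quantile normalization between arrays the counts were 890 higher and 550 lower, 61.8% higher in place of 80.0%. The count of adjusted calls was 42 without the estrogen-treated lymph node of mouse 11, 38 of them higher, and 1 without that of mouse 14. With the side of the hybridization control split as a covariate it was 1078, 311 higher and 767 lower. In that fit the covariate was set by lymph node arrays, because both withdrawn primary tumors lay on the high side and both estrogen-treated ones on the low side. Of the 38 genes ranked below, 31 passed in that fit, against 1078 of all 17170. Without the estrogen-treated lymph node of mouse 11, 15 of the 38 passed, against 42 of all genes. The 38 were picked for large differences on these same arrays, so these counts are no support, and the cause was not tested. None of the site differences after withdrawal given below passed the adjusted threshold in the fit as designed. Genes are given by their array values, some also by the difference with its standard error (SE).

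The genes with the highest moderated t, the difference divided by its SE, were led by UPK2. This gene encodes a uroplakin, a membrane protein known from the lining of the bladder. It had 8.64, 8.79 and 8.65 in lymph nodes against 4.83 and 5.32 in primary tumors, so the groups lay apart by over 3 log2 units. The difference was 3.62 ± 0.35 (SE), a 12.3-fold higher signal, with a limma adjusted p of 0.0643. Over the alternatives its adjusted p lay between 0.00597 and 0.863 and its difference between 3.32 and 3.92, and on the high side of the hybridization split alone, with 1 lymph node against both primary tumors, it was 3.58.

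INF2, a formin that builds and severs actin filaments, had 8.06, 9.15 and 8.28 against 4.78 and 4.90. Its difference was 3.65 ± 0.42 (adjusted p = 0.0789 by limma), seen in 2 of its 3 probe sets. GDPD3, a phosphodiesterase of lysophospholipids, had 9.36, 9.05 and 9.41 against 5.98 and 7.02, a difference of 2.78 ± 0.34. In both genes every lymph node lay above both primary tumors. ELOVL1, an elongase of very long fatty acids, had 9.41, 9.47 and 9.20 against 7.84 and 7.54. PPT2, a lysosomal thioesterase, had 7.19, 7.02 and 7.22 against 5.21 and 5.51.

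CDH18, a cadherin best known from the nervous system, had 4.44, 4.70 and 5.10 against 2.54 and 1.96, so that its primary tumor values lay below the arrays' medians. FEM1A, an adaptor of a ubiquitin ligase, differed by 2.16 ± 0.27 and TTLL12, of the tubulin ligase-like family, by 2.16 ± 0.28. The list of 10 closed with CALHM2, a calcium homeostasis modulator (2.46 ± 0.34), and ATOSB (2.20 ± 0.31). All 10 had groups that did not overlap, against 20.8% of all genes tested, but the ranking by moderated t on these same arrays favours such genes. The count is therefore no support. Limma's adjusted p ranged from 0.0643 to 0.118.

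**Figure D1:**
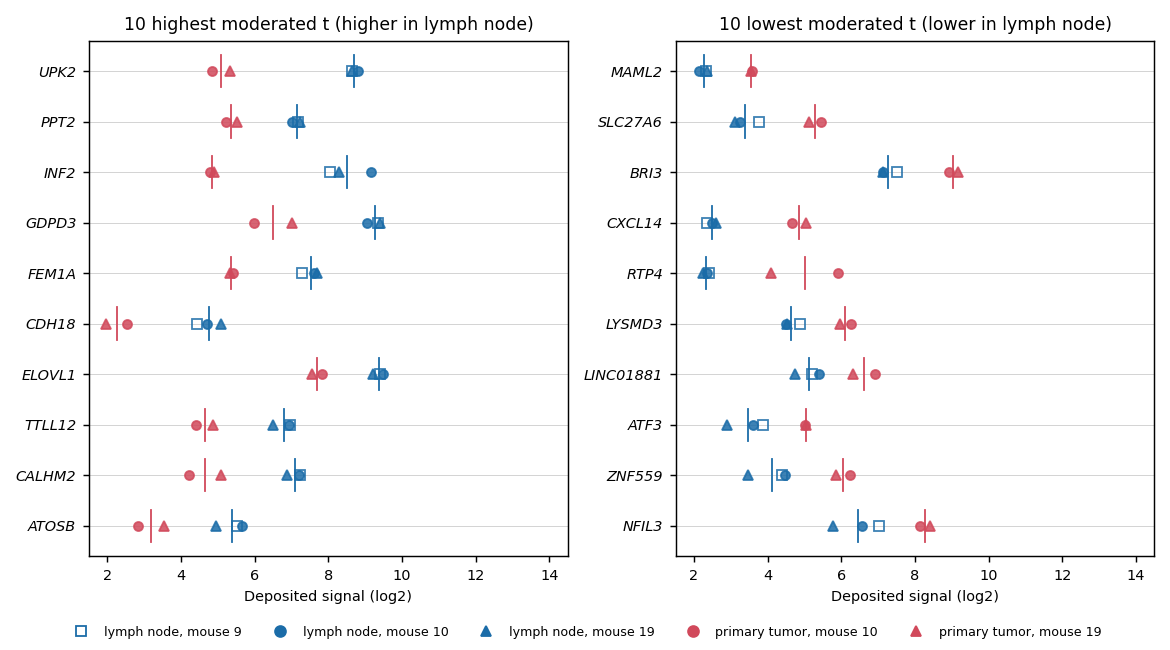
Deposited log2 signal (x axis) of the 10 genes with the highest and the 10 with the lowest moderated t, 1 point per array, with blue for lymph node, red for primary tumor, marker shape for mouse and vertical lines for group means. The 3 lymph node values lie on one side of both primary tumor values for each gene, which the ranking on these same arrays favours. UPK2 lies at 8.64 to 8.79 against 4.83 and 5.32, and 0 of the 20 genes passed the adjusted threshold.

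The lowest moderated t was that of MAML2, a coactivator of Notch receptors. It had 2.33, 2.13 and 2.35 in lymph nodes against 3.58 and 3.54 in primary tumors. Its difference was −1.28 ± 0.19 (limma adjusted p = 0.118), and its lymph node values lay below the arrays' medians. On the estrogen-treated arrays MAML2 lay at 2.20 to 2.30, below the filter of 2.31 on the mean of all arrays. Only the withdrawn primary tumors lay clearly above that filter, so the values that make the difference also brought MAML2 into the test. With a stricter filter, at the 50th percentile, MAML2 was not tested. CXCL14, a chemokine made by epithelia, had 2.36, 2.49 and 2.60 against 4.66 and 5.05, a difference of −2.38 ± 0.42, and all 3 of its probe sets were lower in lymph nodes. RTP4, an interferon-induced chaperone of receptors, had 2.41, 2.37 and 2.23 against 5.91 and 4.10, the higher of which was the primary tumor of mouse 10. The lymph node values of CXCL14 and RTP4 lay below the arrays' medians.

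SLC27A6, a fatty acid transport protein, had 3.77, 3.25 and 3.12 against 5.45 and 5.12. ATF3, a stress-induced transcription factor, had 3.88, 3.60 and 2.88 against 5.02 and 5.05, seen in 2 of its 4 probe sets. NFIL3, a basic leucine zipper repressor, had 7.01, 6.56 and 5.77 against 8.13 and 8.42. The list was completed by BRI3 (−1.78 ± 0.31), LYSMD3 (−1.46 ± 0.28), the non-coding LINC01881 (−1.51 ± 0.30) and the zinc finger gene ZNF559 (−1.93 ± 0.40). Limma's adjusted p over these 10 genes ranged from 0.118 to 0.189.

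Taking the arrays singly, 3571 of the genes tested (20.8%) had all 3 lymph nodes above both primary tumors and 1749 (10.2%) had all 3 below. After quantile normalization these counts were 3031 and 2369, 56.1% higher in place of 67.1%. A within-mouse difference of at least 1 log2 unit in both mice, with the lymph node of mouse 9 outside the primary tumor values on the same side, was found for 545 genes higher (3.17%) and 292 lower (1.7%). Both mice passed 1 unit in either direction at 1060 genes, and 929 of these, 87.6%, had the same sign. Over all genes tested 59.9% had the same sign in both mice. The Pearson correlation of the differences of mouse 10 with those of mouse 19 was 0.376 across the 17170 genes (Spearman 0.327), which are not independent replicates. Mouse 10's pair straddled the hybridization split, while mouse 19's pair lay on its high side.

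**Figure D2:**
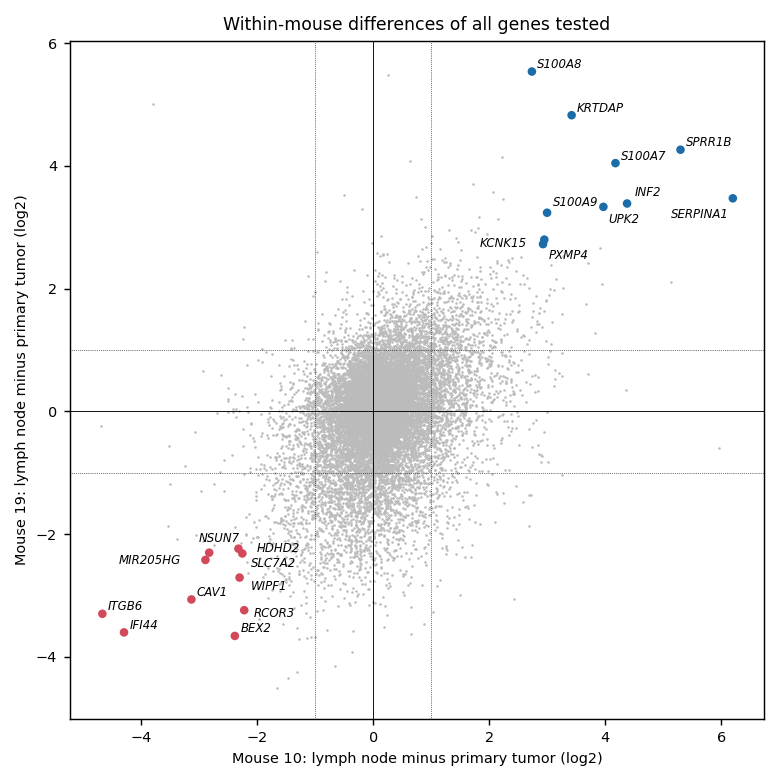
Lymph node minus primary tumor in mouse 10 (x axis, log2) and mouse 19 (y axis, log2) for the 17170 genes tested, with dotted lines at 1 log2 unit. Blue and red points are the 10 highest and 10 lowest by the smaller of the 2 mouse differences, with S100A8, KRTDAP, SPRR1B, S100A7 and SERPINA1 in the upper right and ITGB6, IFI44 and CAV1 in the lower left.

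The 10 highest genes by the smaller of the within-mouse differences included SPRR1B, KRTDAP and 3 S100 genes. SPRR1B, a cornified envelope precursor of stratified epithelia, had 4.88, 7.65 and 7.69 in lymph nodes against 2.35 and 3.43 in primary tumors, which gave 5.30 in mouse 10 and 4.26 in mouse 19. The lymph node of mouse 9 lay between, closer to the primary tumors than to the other lymph nodes. KRTDAP, a secreted protein of differentiating keratinocytes, showed the same order of lymph nodes, with 4.25, 7.10 and 7.85 against 3.68 and 3.03. S100A7, a calcium-binding protein also called psoriasin, had 5.34, 8.20 and 7.52 against 4.02 and 3.48.

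S100A8 and S100A9 encode the subunits of calprotectin. S100A8 had 9.91, 12.30 and 11.73 against 9.56 and 6.19. S100A9 had 4.31, 7.01 and 6.16 against 4.01 and 2.92. In both genes the lymph node of mouse 9 and the primary tumor of mouse 10 were close neighbours. Calprotectin is abundant in neutrophils and monocytes as well as in squamous epithelium, and 15 of the 18 measured genes on the list of myeloid markers stayed below 4 on all 5 arrays. The mean over that list was 3.08 to 3.42 in lymph nodes against 2.80 and 3.12 in primary tumors, S100A8 and S100A9 being its only members over 6. The part of myeloid cells in these values was not tested.

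SERPINA1, the protease inhibitor alpha-antitrypsin, had 8.21, 10.72 and 8.29 against 4.52 and 4.82, with differences of 6.20 in mouse 10 and 3.47 in mouse 19. It is also induced by estrogen in breast cancer cells, and 1 of its 2 probe sets was higher. KCNK15, a potassium channel subunit, had 8.48, 9.15 and 9.36 against 6.21 and 6.57. PXMP4, a peroxisomal membrane protein, had 9.63, 11.29 and 10.63 against 8.37 and 7.91. The remaining genes of this ranking were UPK2 and INF2.

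The lowest within-mouse genes were led by IFI44, ITGB6 and CAV1. ITGB6, the integrin subunit that binds latent TGF-beta, had 6.92, 5.61 and 4.64 against 10.28 and 7.94, a difference of −3.36 ± 1.09 seen in 3 of its 5 probe sets. IFI44, an interferon-induced gene, had 6.46, 5.40 and 3.74 against 9.70 and 7.34. In both genes mouse 10's primary tumor was the highest array and mouse 19's lymph node the lowest. CAV1, the main coat protein of caveolae, had 3.20, 3.88 and 2.65 against 7.02 and 5.72 (−3.12 ± 0.67, limma adjusted p = 0.199), and the lymph node of mouse 19 lay below the arrays' medians.

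BEX2 had 7.37, 5.99 and 4.85 against 8.38 and 8.51. SLC7A2, a transporter of cationic amino acids, had 10.24, 9.27 and 8.72 against 11.60 and 10.95. The others were MIR205HG, the host transcript of a microRNA of basal epithelium (−2.11 ± 0.66), WIPF1, a partner of the actin regulator WASP (−2.17 ± 0.88), the corepressor RCOR3 (−2.44 ± 0.80, 2 of 3 probe sets), NSUN7 (−2.52 ± 0.55, 1 of 2 probe sets) and HDHD2 (−1.97 ± 0.92). On the high side of the hybridization split, 1 lymph node against both primary tumors, the differences were 1.51 to 4.80 for the 18 higher genes and −4.78 to −1.21 for the 20 lower ones, with signs that the rankings fixed.

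Gene groups were then described by how many members were higher and by their median difference. Over all 17170 genes tested, 9722 were higher and the median was 0.065, and the counts below are to be read against that share. Of 39 list medians, 13 turned sign with the hybridization covariate, 11 on the high side alone, 8 after quantile normalization and 10 without either primary tumor in turn. Secreted and surface products of luminal cells had a median of 0.78, with 22 of 25 members higher and 14 with all lymph nodes above both primary tumors, against 20.8% of all genes. The list holds S100A7, S100A8, S100A9 and SERPINA1 from the within-mouse ranking, so its counts are not independent of that ranking. S100A8 and S100A9 are also on the myeloid list, so not every member is particular to luminal cells. MUC1, the mucin of the luminal surface, had 11.74, 11.10 and 11.87 against 10.26 and 10.36. TFF1, a trefoil peptide induced by estrogen, had 13.91, 14.12 and 14.09 against 13.41 and 13.34, near the top of the scale. TFF2, its relative from the stomach, went the other way with 3.80, 3.71 and 3.90 against 5.25 and 4.78. Whichever withdrawn array was left out, the median of this list lay between 0.62 and 0.83.

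The squamous, S100 and uroplakin groups were put together after their genes had been seen at the top of the ranking, so their counts are no independent evidence. Of 14 S100 genes tested, 12 were higher, with a median of 1.17 that was 0.51 without the primary tumor of mouse 19. S100A6, or calcyclin, had 8.91, 10.02 and 8.64 against 6.08 and 6.56. Of 5 uroplakin genes 4 were higher. UPK1A had 7.27, 6.03 and 4.69 against 4.15 and 3.18, and UPK3B had 7.81, 7.59 and 7.94 against 6.54 and 6.09. Of 25 squamous genes 22 were higher with a median of 0.41, which was 0.71 without the lymph node of mouse 9. SPRR3, a small proline-rich envelope protein, had 6.39, 6.23 and 7.96 against 4.0 and 3.81.

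**Figure D3:**
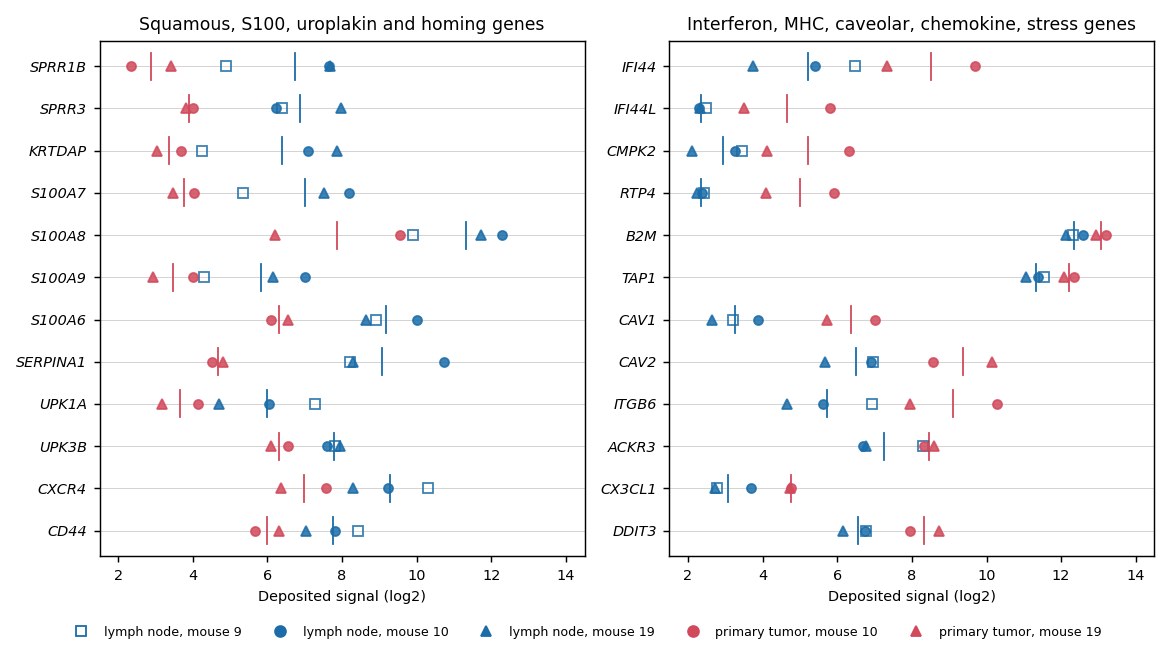
Deposited log2 signal (x axis) of 24 genes of the squamous, S100, uroplakin, homing, interferon, MHC class I, caveolar, chemokine and stress groups, 1 point per array, with blue for lymph node, red for primary tumor, marker shape for mouse and vertical lines for group means. The lymph node of mouse 9 has the lowest lymph node value of SPRR1B (4.88), KRTDAP (4.25) and S100A7 (5.34), and the primary tumor of mouse 10 has the highest value of IFI44 (9.70) and CMPK2 (6.31).

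Hormone-related genes had no common direction. Of 40 estrogen-induced genes 25 were higher, 10 had lymph nodes above both primary tumors (against 20.8% of all genes) and 0 had them below (against 10.2%). Their median was 0.31, but −0.31 with the hybridization covariate, −0.030 on the high side and −0.031 without the primary tumor of mouse 19, and the within-mouse medians were 0.032 and 0.010. CTSD, the lysosomal protease cathepsin D, had 9.36, 9.20 and 9.62 against 7.98 and 7.83, seen in 5 of its 7 probe sets. AGR2, a disulfide isomerase of secretory epithelium, had 11.24, 10.92 and 10.48 against 8.13 and 9.88.

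GREB1, an estrogen-induced cofactor of the receptor, had 5.79, 6.13 and 7.48 against 6.78 and 7.73, and its groups overlapped. Of 18 estrogen-repressed genes 10 were higher, with a median of 0.077. YPEL3, a growth-restraining gene, had 6.28, 5.37 and 5.16 against 3.99 and 4.18, while TXNIP, a thioredoxin inhibitor, had 11.05, 9.43 and 9.97 against 10.82 and 11.68. Luminal genes had a median of 0.37, with 15 of 23 higher, and −0.031 without the primary tumor of mouse 10. GATA3, a luminal transcription factor, had 12.37, 12.19 and 12.41 against 12.46 and 12.96, slightly lower in lymph nodes.

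Mitosis genes were higher in most members in the fit, while DNA replication genes were higher in a share near that of all genes (9722 of 17170). The sign of both medians could be turned by 1 array. Of 28 mitosis genes 22 were higher, 6 had all lymph nodes above both primary tumors (against 20.8% of all genes) and 0 had them below (against 10.2%). Their median was 0.55 in the fit, 0.30 within mouse 10 and 0.56 within mouse 19. Without the primary tumor of mouse 19 the median was −0.15, without that of mouse 10 it was 0.95, and with the hybridization covariate it was −0.22. CDC20, the activator of the anaphase-promoting complex, had 9.83, 10.77 and 9.92 against 8.82 and 7.02. FOXM1, a driver of mitotic transcription, had 10.72, 10.94 and 10.49 against 10.38 and 8.60. In both genes the primary tumor of mouse 19 was the lowest array, by over 1.5 log2 units from the next.

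MKI67, the common proliferation marker, had 8.73, 9.03 and 8.15 against 8.81 and 6.87, and its groups overlapped. DNA replication genes had 17 of 28 higher and a median of 0.27, with 0.18 within mouse 10 and 0.23 within mouse 19. It was −0.29 without the primary tumor of mouse 19, −0.41 with the covariate and −0.19 on the high side. RRM2, a subunit of ribonucleotide reductase, had 12.02, 12.11 and 11.77 against 11.09 and 10.01. CCND1, the G1 cyclin gene, had 10.73, 10.57 and 10.24 against 11.20 and 9.21, and MYC had 5.55, 5.79 and 3.82 against 4.99 and 4.02. In CCND1 the highest and the lowest value were both primary tumors.

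Glycolysis and hypoxia-response genes had a median of 0.61, with 24 of 31 higher, 16 with lymph nodes above both primary tumors (against 20.8% of all genes) and 4 with them below (against 10.2%). The median was 0.37 without the primary tumor of mouse 19, 0.37 on the high hybridization side and 0.29 with the covariate. ALDOA, the glycolytic aldolase, had 12.38, 12.82 and 12.27 against 11.03 and 10.32. TPI1, triose phosphate isomerase, had 11.13, 11.52 and 11.09 against 10.17 and 9.66, and PFKL, a phosphofructokinase subunit, had 10.28, 10.45 and 10.33 against 9.31 and 8.46. The hypoxia-induced peptide gene ADM went the other way, with 5.27, 6.07 and 5.60 against 7.32 and 7.94.

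Cholesterol and fatty acid synthesis genes had 16 of 20 higher and a median of 0.45. It was 0.97 without the lymph node of mouse 19 and 0.17 without the primary tumor of mouse 19. It turned to −0.15 with the hybridization covariate and −0.026 on the high side. DHCR7, the last enzyme of cholesterol synthesis, had 10.76, 11.09 and 10.68 against 9.39 and 9.05 (1.62 ± 0.25). Oxidative phosphorylation genes had a median of 0.016, below that of all genes. It was −0.51 with the hybridization covariate and −0.15 on the high side. UQCRC1, a complex III core protein, was higher all the same, with 9.13, 9.76 and 8.67 against 7.40 and 6.84. Cytosolic ribosomal protein genes had a median of −0.084, and 15 of 39 had all lymph nodes below both primary tumors (against 10.2% of all genes) and 6 had them above (against 20.8%).

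**Figure D4:**
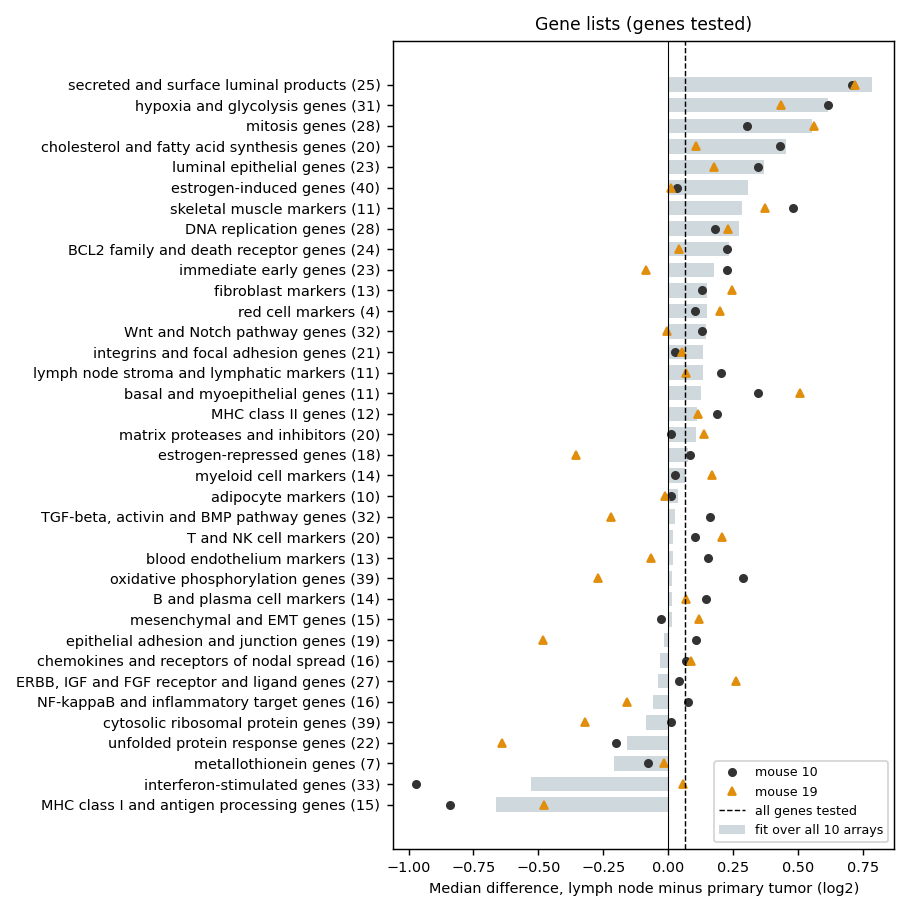
Median difference, lymph node minus primary tumor (log2, x axis), of the 36 gene lists, with the number of genes tested in brackets. Bars give the fit over all arrays, dots mouse 10, triangles mouse 19 and the dashed line all genes tested (0.065). Secreted and surface luminal products (0.78) lie at the top, and interferon-stimulated (−0.53) and MHC class I genes (−0.66) at the bottom, with mouse 10 at −0.97 and mouse 19 at 0.056 for the interferon list.

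Interferon-stimulated and antigen-presentation genes were lower in lymph nodes in most members in the fit, but the sign of the interferon median turned with the hybridization covariate, to 0.65. Of 33 interferon-stimulated genes 10 were higher, 11 had all lymph nodes below both primary tumors (against 10.2% of all genes) and 1 had them above (against 20.8%). The median was −0.53 in the fit, −0.97 within mouse 10 and 0.056 within mouse 19. The mean level of the list was 7.93 in the primary tumor of mouse 10 and 6.77 to 6.94 on the other 4 arrays. Without that tumor the median was −0.014, and without the primary tumor of mouse 19 it was −1.13.

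IFI44L had 2.47, 2.29 and 2.31 in lymph nodes, all below the arrays' medians, against 5.80 and 3.49 in primary tumors. CMPK2, a mitochondrial nucleotide kinase induced by interferon, had 3.45, 3.25 and 2.10 against 6.31 and 4.12. Its value in the lymph node of mouse 19 also lay below the array's median. IFIT3 had 5.29, 4.95 and 4.84 against 8.33 and 6.92. In each of these genes the primary tumor of mouse 10 was the highest array, and that of mouse 19 also lay above all lymph nodes. IRF9, the DNA-binding part of the interferon-activated complex, was the only member higher in all lymph nodes, with 8.33, 8.41 and 7.24 against 6.21 and 6.12.

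MHC class I and antigen processing genes had the lowest median, −0.66, with 3 of 15 higher. All lymph nodes lay below both primary tumors for 7 (against 10.2% of all genes) and above them for 1 (against 20.8%). Unlike the interferon list, both mice were on the same side, with −0.84 in mouse 10 and −0.48 in mouse 19, a contrast that was not tested. Without the primary tumor of mouse 10 the median was −0.34, and with the hybridization covariate it was −0.29. B2M, the light chain of MHC class I, had 12.31, 12.58 and 12.14 against 13.19 and 12.93. TAP1, a peptide transporter subunit, had 11.55, 11.38 and 11.07 against 12.33 and 12.07. NLRC5, the transactivator of these genes, had 4.58, 4.29 and 6.41 against 8.98 and 6.65, and HLA-B had 6.37, 6.23 and 5.70 against 7.82 and 6.49, whose probes can also read other class I genes.

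Stress-response genes of the unfolded protein response had 6 of 22 higher, with a median of −0.16. Leaving out the lymph node of mouse 19 gave −0.018, leaving out the mouse 9 array −0.34 and leaving out the mouse 19 primary tumor −0.33. The median was −0.20 within mouse 10 and −0.64 within mouse 19. It was −0.89 with the hybridization covariate and −0.80 on the high side. DDIT3, the stress-induced factor CHOP, had 6.76, 6.75 and 6.14 against 7.96 and 8.72, and SESN2, a stress-induced sestrin, had 6.73, 7.37 and 7.43 against 8.18 and 8.23. CALR, the chaperone calreticulin, went the other way with 12.68, 12.82 and 12.47 against 11.59 and 11.59. GDF15, a secreted stress cytokine, had 7.36, 7.17 and 6.15 against 8.07 and 8.31. Among death regulators, the BH3-only gene BCL2L11 had 7.24, 6.70 and 6.89 against 8.30 and 8.08, while BAD, another of that class, had 6.75, 6.74 and 6.08 against 4.44 and 4.83 seen in 1 of its 2 probe sets.

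Immediate early genes had 18 of 23 higher and a median of 0.18, against −0.084 within mouse 19. It was 0.53 without the lymph node of mouse 19, 0.49 without the primary tumor of mouse 10, −0.10 with the hybridization covariate and −0.15 on the high side. The transcription factor gene KLF2 had 6.59, 6.88 and 4.38 against 3.82 and 3.39. KLF6 had 6.18, 6.04 and 4.32 against 3.58 and 3.88. The AP-1 subunit gene FOSL2 had 7.48, 7.40 and 6.93 against 5.64 and 4.01. For KLF2 and KLF6 the lymph node of mouse 19 was the nearest to the primary tumors. On the high hybridization side alone the KLF2 difference was 0.77 in place of 2.36, and that of KLF6 was 0.59 in place of 1.80.

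Adhesion genes had no common direction. Of 21 integrin and focal adhesion genes 11 were higher, with a median of 0.14 that was −0.070 without the primary tumor of mouse 19. CAV2, the caveolar partner of CAV1, had 6.96, 6.90 and 5.66 against 8.56 and 10.16, and all 3 of its probe sets were lower in lymph nodes. CD44, the hyaluronan receptor, had 8.42, 7.81 and 7.04 against 5.66 and 6.31, seen in 7 of its 13 probe sets. Epithelial junction genes had a median of −0.015, and −0.48 within mouse 19. It was −0.65 with the hybridization covariate and −0.62 on the high side.

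CDH1, or E-cadherin, had 11.89, 11.70 and 11.34 against 12.08 and 12.19, lower on every lymph node array by a small margin, seen in 1 of 2 probe sets. JUP, or plakoglobin, had 9.20, 9.36 and 8.68 against 7.41 and 7.38, and the tight junction scaffold TJP3 had 5.26, 5.38 and 5.63 against 2.99 and 3.12. Of 16 mesenchymal genes measured, 8 stayed below 4 on all 5 arrays and 3 passed 6 on at least 1. VIM, the mesenchymal filament gene, had 2.21, 2.54 and 2.56 against 2.36 and 2.36, and FN1, or fibronectin, had 5.57, 5.36 and 3.96 against 6.39 and 6.72.

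Receptor and growth factor genes outside the hormone pathway had medians near that of all genes. Of 27 ERBB, IGF and FGF receptor and ligand genes 12 were higher (median −0.041, but 0.24 on the high hybridization side), of 32 TGF-beta, activin and BMP pathway genes 18 were higher (0.026), and of 32 Wnt and Notch pathway genes 17 were higher (0.15). IGF2R, which clears IGF2 from the cell surface, had 8.22, 8.07 and 6.90 against 6.47 and 6.77. BMP4, a secreted ligand of bone morphogenetic protein receptors, had 4.49, 4.36 and 5.33 against 3.34 and 3.82. For both genes every lymph node lay above both primary tumors, IGF2R by the narrower margin.

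JAG1, a Notch ligand, had 5.47, 5.05 and 5.10 against 5.78 and 7.40, seen in 3 of its 7 probe sets, and the receptor gene NOTCH3 had 8.74, 8.62 and 8.46 against 8.31 and 7.57. Among 16 genes of NF-kappaB and inflammatory signalling 7 were higher (median −0.058). BCL3, a nuclear partner of NF-kappaB, had 6.71, 6.43 and 6.72 against 4.97 and 5.23, while its inhibitor gene NFKBIA had 8.19, 7.97 and 8.02 against 8.82 and 9.32. Of 24 BCL2 family and death receptor genes 16 were higher (0.24, but 0.021 without the primary tumor of mouse 19), of 20 matrix proteases and inhibitors 12 (0.11), of 11 basal and myoepithelial genes 7 (0.13) and of 7 metallothionein genes 3 (−0.21, but 0.25 with the covariate). MT1X, a zinc-binding metallothionein, had 7.25, 8.34 and 6.58 against 6.06 and 6.13.

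Genes of homing to lymph nodes were mostly at the low end of the scale, with 13 of 21 below 4 on all 5 arrays and a median of −0.033 among the 16 tested. CXCR4, the chemokine receptor most often tied to spread of breast cancer to nodes, was an exception. It had 10.32, 9.22 and 8.28 in lymph nodes against 7.56 and 6.37 in primary tumors, a 5.02-fold higher signal (2.33 ± 0.87, limma adjusted p = 0.423), and all 4 of its probe sets were higher. The difference was 1.32 on the high hybridization side. ACKR3, which scavenges the same ligand, had 8.29, 6.69 and 6.77 against 8.33 and 8.58, and the membrane chemokine CX3CL1 had 2.77, 3.69 and 2.72 against 4.77 and 4.73. CXCL12, the shared ligand, had 2.11, 2.33 and 2.33 against 2.34 and 2.31, and CCR7, the receptor that guides leukocytes into nodes, had 2.80, 3.08 and 3.25 against 2.29 and 2.83.

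Marker lists of the tissue around the tumor cells had low mean levels at both sites. T and NK cell markers had a mean level of 2.95 to 3.15 in lymph nodes against 2.96 and 2.99 in primary tumors, with 16 of 21 below 4 on all 5 arrays and 0 over 6 on any. B and plasma cell markers had 3.57 to 3.79 against 3.53 and 3.62. Of 14 B and plasma cell genes tested 7 were higher and 7 lower, with a median of 0.016. All lymph nodes lay above both primary tumors for 4 (against 20.8% of all genes) and below them for 0 (against 10.2%). CD79A, a B cell receptor subunit and 1 of these 4, had 5.31, 5.72 and 5.80 against 3.73 and 4.79. MHC class II genes had 3.44 to 3.62 against 3.38 and 3.54, with CD74 at 3.13 to 3.42 against 2.93 and 3.19. Markers of lymph node stroma and lymphatic vessels had 2.69 to 3.00 against 2.73 and 2.81, with 0 of 13 over 6 on any array.

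Fibroblast markers had 3.29 to 3.49 against 3.41 and 3.51, and blood endothelium markers had 3.53 to 3.66 against 3.65 and 3.68. COL3A1, a fibrillar collagen gene, had 3.32, 4.27 and 2.60 against 4.61 and 5.23, while COL1A1 had 7.44, 7.46 and 7.54 against 6.33 and 7.30. Adipocyte markers had 3.23 to 3.41 against 3.16 and 3.26, with 6 of 10 tested higher and 4 lower (median 0.040). Of these, CFD, or adipsin, had 6.80, 7.02 and 8.68 against 4.78 and 5.22. Skeletal muscle markers had 3.88 to 4.07 against 3.63 and 3.77, with 4 of 15 over 6 on at least 1 array, of which TNNT1, a slow troponin, had 8.56, 8.59 and 8.22 against 7.27 and 5.81. Red cell markers had 2.71 to 2.79 against 2.61 and 2.74. These arrays carry human probes, so the lists cannot count mouse cells, and the part of host tissue in the values above was not tested.

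The estrogen-treated arrays gave a site comparison on other mice. Its primary tumor arrays had a narrower range, with 99th percentiles of 9.44 and 10.04, a difference in range that enters every value of that comparison. In it 1504 genes (8.76%) were called, 1341 of them higher in lymph nodes (7.81%). Of the 18 higher genes ranked above, 17 were also higher with estrogen, against 67.6% of all genes. Called were 11 of them, against 7.81% of all genes. The same fit gave both comparisons, and a gene has the same SE in both. Ranks by moderated t and calls with estrogen are therefore not independent. After quantile normalization 17 of the 18 were still higher, against 52.4% of all genes, and 0 were called, against 0.0757% of all genes. Of the 20 lower genes 14 were lower with estrogen, against 32.4% of all genes, and 18 after quantile normalization, against 47.6%.

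UPK2 had a difference of 2.66 ± 0.35 with estrogen (limma adjusted p = 0.00679) and SERPINA1 3.85 ± 0.74 (adjusted p = 0.0166, limma). CXCL14 was the 1 lower gene of the 20 that was called with estrogen, at −3.58 ± 0.42 (adjusted p = 0.00572, limma). Of all genes, 0.949% were called lower with estrogen. ATOSB, in contrast, had −0.067 ± 0.31 with estrogen and BRI3 0.040 ± 0.31. Tested directly, the site difference after withdrawal and that with estrogen differed for 2 genes, NDRG3 and SLC38A2-AS1 (0.0116% called), and for 0 of the 38 ranked genes (adjusted p of 0.137 or more, limma). At an unadjusted p below 0.05 there were 1862 genes. The count of 2 was 1543 without the estrogen-treated lymph node of mouse 11 and 194 without the estrogen-treated primary tumor of mouse 14.

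**Figure D5:**
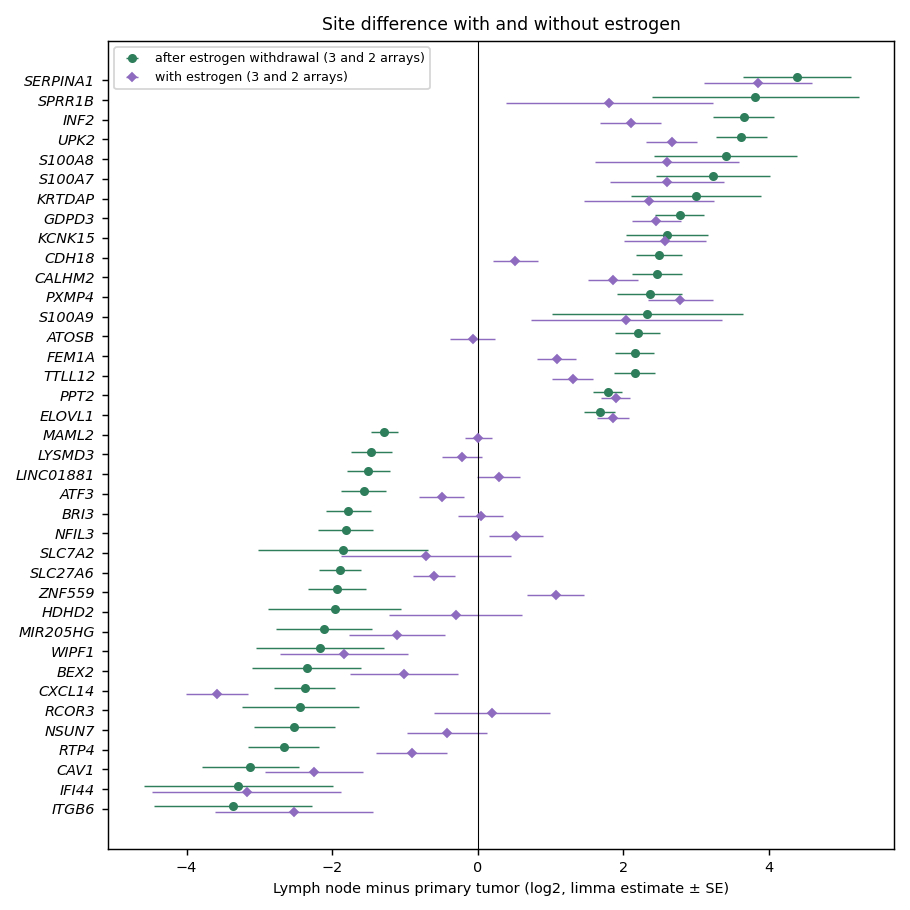
Lymph node minus primary tumor (log2, limma estimate ± SE, x axis) of the 38 ranked genes after withdrawal (green circles) and with estrogen (purple diamonds), each from 3 lymph node and 2 primary tumor arrays. Of the 18 genes above 0 after withdrawal 17 were above 0 with estrogen, and of the 20 below 0 after withdrawal 14 were below 0 with estrogen.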

How the data were processed

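The members and gene lists were chosen with earlier results of these data known, and the S100, squamous and uroplakin lists were added after values were seen. The values are log2 signals as deposited by the authors for each probe set of each array. The submitters' processing notes name Partek and RMA, and versions and probe-level steps are not given in the sources used here. Of 61359 probe sets, 44532 had 1 gene symbol in the platform's annotation. For each gene the brightest probe set, by its mean on all 10 arrays, was used, and genes with a mean below the 25th percentile (2.31) were not tested.

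Differences and SEs are coefficients of a limma 3.58.1 fit (R 4.3.3; lmFit, eBayes) with 4 group means, 10 arrays and mouse as a random block (consensus correlation −0.0415), which differ slightly from differences of group means. Adjusted p-values are Benjamini-Hochberg over 17170 genes. Mouse numbers pair the sites by animal; deviations of the paired arrays from their group means correlated at 0.176 (mouse 10), −0.208 (11), −0.210 (14) and 0.0831 (19). The fit was tested on simulated data.

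Genes named were the 10 highest and 10 lowest by moderated t, the 10 highest and 10 lowest by the smaller within-mouse difference, up to 4 per list by absolute t, and 17 chosen genes. ADM, IFIT3, HLA-B, S100A6, SPRR3, UPK1A and UPK3B were chosen after their values were seen. No counts underlie these values, so precision is set by how many arrays there are.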

Additional observations from a re-analysis of the deposited data

Results flagged for a closer look

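The difference between the site comparison after withdrawal and that with estrogen passed the adjusted threshold for NDRG3 and SLC38A2-AS1. NDRG3, of the N-myc downregulated family, had 6.07, 6.08 and 6.72 in withdrawn lymph nodes and 6.24 and 6.57 in withdrawn primary tumors, against 5.88 to 6.14 in estrogen-treated lymph nodes and 10.58 and 10.25 in estrogen-treated primary tumors. The difference of differences was 4.26 ± 0.39 (limma adjusted p = 0.0382), and 1 of its 2 probe sets had the same sign after withdrawal. SLC38A2-AS1, antisense to an amino acid transporter gene, had 3.44, 3.65 and 3.93 against 4.03 and 4.27 after withdrawal, and 3.52 to 4.63 against 9.16 and 9.31 with estrogen. Its difference of differences was 4.68 ± 0.47 (adjusted p = 0.0416, limma). Both rest on the estrogen-treated primary tumors, the arrays with the narrower range of values. The part of that range in these results was not tested.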

How the results depend on the processing

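The count of genes called between the sites after withdrawal was 0 as designed. It was 1 with the mean of all probe sets of a gene, 3 with a trended and robust eBayes, 1078 with the hybridization control side as a covariate, and 0 to 42 when 1 array was left out, and the cause was not tested. It was 0 with quantile normalization, without the filter, with a stricter filter, and with the 5 withdrawn arrays alone. For the difference between site comparisons, 2 as designed, it was 1 with quantile normalization and with the mean of probe sets, 4 without the filter, 0 with the trended fit, 3390 with the covariate and 0 to 1543 with 1 array left out. Regarding the pairing by mouse, the fixed replicate block called 0 genes in either comparison (smallest adjusted p 0.863 between the sites), and without a replicate block the counts were 0 and 3. With the mean of all probe sets, the within-mouse criterion was met by 308 genes higher and 109 lower. Counts of non-overlapping genes stayed within 1.5 times of the values given above. Leaving out both estrogen-treated primary tumors was added after seeing the data and called 0 genes, with 3 lymph node and 2 primary tumor arrays unchanged.

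Of 143 named and tested genes, 8 turned direction in at least 1 alternative; most of the others were chosen for large differences on these arrays, so their constant sign is no support. With 1 array left out, ESR1 lay between −1.19 and 0.26, MYC between −0.041 and 1.22, CCND1 between −0.69 and 1.35, MKI67 between −0.23 and 1.83, KRT18 between −0.072 and 0.93, and the endothelial marker EMCN between −1.77 and 0.54. In each of these the value of opposite sign came without the primary tumor of mouse 19. CXCL12 lay between −0.11 and 0.00595, the latter without the lymph node of mouse 9 and with the fixed replicate block. ESR1 was 0.12 with the mean of probe sets. MYC was −0.45 with the covariate and −0.68 within the high hybridization side, where GREB1 was 0.23 and CXCL12 0.0031. With 3 against 2 arrays, 1 array decides many of these values, and the median SE was 0.351 log2 units.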
